A study of Sus scrofa with 5 samples.

Results

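GABRP-high cells with little TAC3 made up 1790 of the 15544 cells analysed from pig blastoids, which is 878 of 7369 cells (11.9%) in library 1 and 912 of 8175 cells (11.2%) in library 2. A cell was a barcode with at least 11223 unique molecular identifiers (UMIs, each 1 captured RNA molecule) in library 1 or 9805 in library 2. A member carried at least 10 GABRP UMIs, at most 2 TAC3 UMIs, fewer than 10 ISG15 UMIs and fewer than 10 UMIs of COL3A1 and COL1A2 together. These 5 genes chose the cells, so their values are a description and were not tested.

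The study built blastoids, hollow blastocyst-like aggregates, from pig embryonic stem cells (pESCs), and asked which blastocyst lineages they hold. Both single-cell libraries are from blastoids at day 6 in iBlastoid medium, whose additives include BMP4, LIF, activin A, CHIR99021 and SB431542. The study's methods also describe a version with a first step in 4FXY medium, and the labels do not say which version these libraries came from. The pESCs came from parthenogenetic blastocysts, which carry no paternal genome, and blastoids with an inner cell mass-like compartment, a trophectoderm-like layer and a cavity were picked by hand and dissociated. All groups of cells compared here come from these same 2 libraries and share line, medium and day. Nothing in the labels says whether the libraries were separate cultures, so their spread may be technical. The study also sequenced bulk RNA of 3 pESC samples, labelled pESC-1, pESC-2 and pESC-3 and grown in 4FIXY medium. Of the 3 columns of bulk values 1 is named with IVF and 2 with PA, the study's abbreviation for parthenogenetic, so they may differ in origin and passage.

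GABRP encodes the pi subunit of the GABA-A receptor, a chloride channel opened by the transmitter GABA. Unlike most subunits of this receptor it is found mainly in epithelia outside the nervous system, and in primate embryos and amnion models it is widely used as a marker of amnion, the thin epithelium that encloses the embryo. Trophectoderm is the outer epithelium of the blastocyst and the source of the trophoblast. Amnion and trophectoderm share many genes, among them GATA3, TFAP2A, HAND1 and KRT7, so the identity of GABRP-high cells was examined with separate lists for each, for both, and for pig trophoblast, which elongates and makes oestrogens before implantation. TAC3 encodes the tachykinin neurokinin B, a peptide also made by placenta.

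Members had a median of 33162.5 and 31787.5 UMIs in libraries 1 and 2, against 29121 and 27026.5 in the 5743 and 6658 cells with fewer than 10 GABRP UMIs. A limit on raw UMIs takes deeper cells more easily, and levels are therefore given as counts of the gene per 1000000 of a group's summed UMIs (CPM) in each library. The doublet caller Scrublet, cut at the expected doublet rate, marked 7.40 and 10.9 percent of members as possible doublets, 4.27 and 5.27 percent of the GABRP-low cells and 10.2 and 8.99 percent of the GABRP-high cells with TAC3. Cells held 87.8 and 87.7 percent of all UMIs, and 9 cell barcodes occurred in both libraries. Empty droplets (10 to 100 UMIs) held GABRP at 151 and 156 CPM, above the 52.1 and 53.7 CPM of the GABRP-low cells, so low GABRP counts in those cells cannot be told apart from free RNA.

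GABRP itself stood at 575 and 569 CPM in members and at 1026 and 1092 CPM in the 450 and 378 GABRP-high cells with more than 2 TAC3 UMIs. A member held a median of 17 GABRP UMIs in both libraries, up to 171 in library 1 and 115 in library 2. TAC3 was absent from 573 and 614 members, present as 1 UMI in 204 and 209, and as 2 UMIs in 101 and 89. ISG15, an interferon-induced ubiquitin-like protein, was at 14.6 and 13.2 CPM in members and 111 and 104 CPM in GABRP-low cells, and the fibrillar collagen gene COL3A1 at 11.5 and 7.37 against 153 and 86.9 CPM. In all, 1626 and 1517 cells reached 10 GABRP UMIs, and members were 54.0 and 60.1 percent of them. The limits on ISG15 and collagen took out 298 and 227 of the GABRP-high cells. CYP17A1, described below, was at 241 and 147 CPM in cells just outside the GABRP limit (8 to 9 UMIs) and at 239 and 193 CPM in members just inside it (10 to 11 UMIs). VTCN1 was at 12.7 and 8.88 CPM outside and 15.5 and 14.9 CPM inside. At the TAC3 limit, VTCN1 was 63.8 and 53.9 CPM in cells with 2 TAC3 UMIs and 61.1 and 55.1 CPM in those with 3. Values on both sides of the TAC3 limit were close, and those across the GABRP limit differed by less than 2-fold.

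GABRP lies on the minus strand of chromosome 16 (chr16:53205616-53228765, Sscrofa11.1) with 2 annotated transcripts of 10 and 11 exons. The windows around the annotated starts of GABRP, the gene that chose the cells, and CYP17A1, a steroid enzyme gene that rose with it in the data below, are shown from 250 bases before to 50 bases after the start, 5′ to 3′ on the gene's strand. GABRP is chr16:53228716-53229015 and CYP17A1 is chr14:113820396-113820695, both on the minus strand, in RefSeq's Sscrofa11.1 annotation. Capitals mark matches to 3 motifs searched on both strands: GCCNNNGGC for TFAP2 factors, AGATAA for GATA factors and GGAATG for TEAD factors.
GABRP: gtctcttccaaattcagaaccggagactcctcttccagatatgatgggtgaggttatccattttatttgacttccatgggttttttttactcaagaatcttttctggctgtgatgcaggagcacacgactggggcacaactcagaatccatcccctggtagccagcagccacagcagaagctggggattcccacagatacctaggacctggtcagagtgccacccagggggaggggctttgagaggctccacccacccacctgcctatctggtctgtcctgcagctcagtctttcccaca
CYP17A1: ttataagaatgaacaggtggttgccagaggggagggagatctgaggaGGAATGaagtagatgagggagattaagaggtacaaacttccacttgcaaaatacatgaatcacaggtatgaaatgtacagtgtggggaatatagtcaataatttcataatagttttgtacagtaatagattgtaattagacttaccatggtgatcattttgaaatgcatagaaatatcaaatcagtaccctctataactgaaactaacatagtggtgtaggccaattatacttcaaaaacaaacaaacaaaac
The GABRP window held none of these letters and the CYP17A1 window held 1 TEAD match. Of 19556 pig promoter windows of the same length, 26.2% held the TFAP2 letters, 9.17% the GATA letters and 11.8% the TEAD letters. A match describes the letters of the window and is no evidence of binding.

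Against the GABRP-low cells, members held more RNA of CYP17A1, S100A6, CST6 and TIMP1 and less of VIM, CRABP1 and CDH2. CYP17A1, the enzyme that makes androgens from progestogens on the way to oestrogen, was at 422 and 362 CPM in members and 62.1 and 49.1 CPM in GABRP-low cells. It was higher by 2.95 ± 0.11 (log2 fold change ± SE, adjusted p = 1.25e-06, by the quasi-likelihood test of edgeR, adjusted by Benjamini-Hochberg over all genes tested, n = 2 libraries). S100A6, a calcium-binding protein of many epithelia, was at 1636 and 1906 CPM against 262 and 288 CPM. CST6, a secreted inhibitor of cysteine proteases, was at 585 and 638 CPM against 86.0 and 104 CPM. TIMP1, a secreted inhibitor of metalloproteinases, was at 604 and 565 CPM against 120.1 and 103 CPM. In all 4 genes both libraries of members lay above both libraries of GABRP-low cells, with empty droplets in between. A 2-fold difference in each library was a condition for naming them, so this separation is no further support. Without the doublets called by Scrublet, 813 genes were higher and 1094 lower by the criteria that follow.

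A gene was called when its adjusted p was below 0.05 and its level differed at least 2-fold. Of 17627 genes tested, 705 were called higher in members (4.00%) and 886 lower (5.03%), and 1590 of these 1591 moved the same way in each library. By the total counts alone, in place of edgeR's TMM scaling, the calls were 563 higher and 1139 lower, with the median of all genes at -0.15 on the log2 scale. Without the limit on fold, 6499 genes (36.9%) had an adjusted p below 0.05, so a gene without a call may still differ by less than 2-fold. SLC7A4, a transporter of the cationic amino acid family, had the largest rise of the named genes that reached 50 CPM in both libraries, apart from GABRP (2.99 ± 0.13). It was followed by ADCY2, an adenylyl cyclase, at 2.96 ± 0.19. HS6ST3, a heparan sulfate sulfotransferase, rose by 2.70, EPAS1, a hypoxia-responsive transcription factor, by 2.66 and PTK2B, a non-receptor tyrosine kinase, by 2.62. LURAP1L, CSMD1 and RALGAPA2 rose by 2.70, 2.59 and 2.27.

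Apart from the genes of the rule, VIM had the largest fall of the named genes that reached 50 CPM in both libraries of the GABRP-low cells. VIM, the intermediate filament of mesenchymal cells, was at 26.4 and 24.5 CPM in members and 189 and 131 CPM in GABRP-low cells (-2.51 ± 0.16, adjusted p = 1.53e-05). CRABP1, a retinoic acid-binding protein of neural cells, fell by 1.98 and CDH2 (N-cadherin) by 1.83 on the log2 scale. CYP26A1, which breaks down retinoic acid, fell by 1.67 and MYL7, an atrial myosin light chain, by 1.66. COLEC12, CTNNA2 and MMP16 fell by 1.69, 1.59 and 1.56. Members were chosen to be low in collagen and ISG15, and how much of these falls comes with the rule cannot be told apart in this comparison. When the GABRP-low cells were held to the same ISG15 and collagen limits, the calls were 750 higher and 739 lower, VIM stood at -1.49, and COLEC12 was no longer called (-0.63).

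Of the 19 amnion genes, 17 could be tested and 9 rose against the GABRP-low cells, with 1 lower. Their median log2 fold change was 1.08, beside -0.01 over all genes. Over all genes 4.00% were called higher and 5.03% lower, and the calls of the later lists in this comparison stand beside the same shares. VTCN1, an immune checkpoint ligand of amnion and trophoblast, was at 32.5 and 31.2 CPM in members and 3.22 and 2.43 CPM in GABRP-low cells (3.64 ± 0.11, adjusted p = 5.92e-07). ITGB6, an epithelial integrin subunit, was at 32.3 and 34.1 against 3.77 and 3.05 CPM (3.42 ± 0.10). These 2 genes had the largest rises of the list, and both stayed below 4 CPM in the GABRP-low cells. VTCN1 is also a trophoblast gene and ITGB6 is described as epithelial, so these rises alone do not tell amnion from trophectoderm.

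ISL1, a homeobox factor needed for amnion in primates, was at 93.3 and 79.2 CPM in members and 42.7 and 31.1 CPM in GABRP-low cells (1.36 ± 0.13, adjusted p = 1.57e-04). WNT6, a secreted WNT ligand, was at 216 and 202 against 68.5 and 59.3 CPM (1.84 ± 0.07). TNC, the matrix protein tenascin C, was at 197 and 188 against 62.3 and 49.9 CPM (1.91 ± 0.09). In each of these genes the libraries of the groups did not overlap, which describes called genes and is no separate support. MEIS1, IGFBP3, TFAP2B and ANKRD1 also rose, by 1.22, 1.59, 1.18 and 1.08, with ANKRD1 not called by total counts (0.94) or against cells with no GABRP UMI (0.71, adjusted p = 0.0760 in edgeR). BMP4, a ligand that induces amnion in stem cell models, was -0.46 ± 0.13, BAMBI -0.34, LEF1 -0.14 and HEY1 -0.15, none of them called. The direction of BMP4 depended on the comparator, with 0.73 against cells held to the ISG15 and collagen limits (not called) and -1.15 against cells with no GABRP UMI (called). POSTN and NR2F2 were 0.69 and 0.82, also short of a call, and GADD45G was 0.61. POSTN was called at 2.13 against cells held to the ISG15 and collagen limits and at 1.04 with GABRP of at least 20, and NR2F2 at 1.17 against cells with no GABRP UMI. IGFBP5 was too rare to be tested. Summed over the list without GABRP, members held 1208 and 1116 CPM, GABRP-low cells 788 and 627 CPM and empty droplets 802 and 636 CPM. The GABRP-low cells with 10 or more collagen UMIs held 2298 and 2227 CPM, more than members. The list contains VIM, POSTN, TNC and BMP4, which mesenchymal cells are also known to express.

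**Figure D1:**
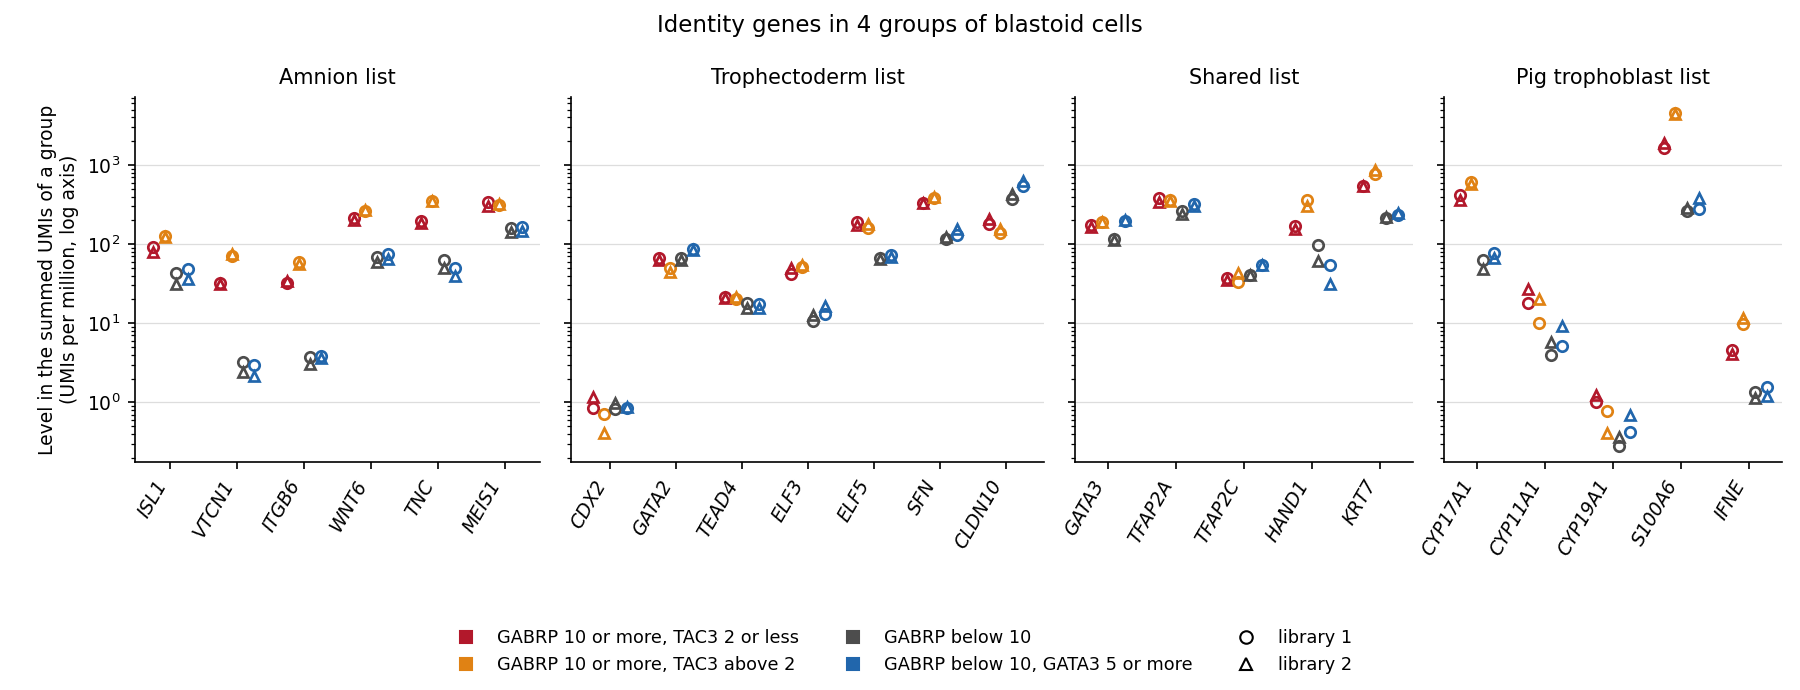
CPM (vertical log axis) of genes of 4 identity lists in members, GABRP-high cells with TAC3, GABRP-low cells and GABRP-low cells with GATA3, each symbol 1 library. VTCN1, ITGB6, CYP17A1 and S100A6 separate both GABRP-high groups from both GABRP-low groups, while CDX2 stays at or below 1.18 CPM in every group and TFAP2C lies between 32.9 and 54.5 CPM.

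Of the 19 trophectoderm genes, 18 could be tested, and 4 rose and 1 fell. Their median was 0.39. ELF5, a transcription factor of trophoblast stem cells, was at 190.1 and 175 CPM in members and 67.5 and 64.0 CPM in GABRP-low cells (1.61 ± 0.07, adjusted p = 1.99e-06). ELF3, its epithelial relative, was at 41.5 and 49.4 against 10.6 and 12.7 CPM (2.09 ± 0.11). SFN (stratifin), used by the study for trophectoderm, was at 327 and 334 against 115 and 125 CPM (1.60 ± 0.06). PTGES, a prostaglandin E synthase, rose by 1.02, but stood at 0.88 by total counts and at 0.93 against GABRP-low cells without ISG15-high or collagen cells.

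CDX2, the factor that sets up trophectoderm in the mouse blastocyst, was at 0.858 and 1.18 CPM in members and 0.833 and 0.967 CPM in GABRP-low cells, a difference of 0.32 ± 0.26 that was not called. It was called at 1.05 with GABRP of at least 20, and stood at 0.91 against cells held to the ISG15 and collagen limits. GATA2 was at 66.5 and 63.1 against 65.8 and 62.2 CPM (0.15 ± 0.06). TEAD4, the partner of YAP in trophectoderm, was at 21.2 and 20.7 against 17.8 and 15.4 CPM (0.47 ± 0.08), less than 2-fold. EOMES, which is also a primitive streak gene, fell from 3.68 and 3.28 to 0.740 and 1.04 CPM. CLDN10, a claudin, and FABP3, a fatty acid-binding protein, were -0.91 ± 0.10 and -0.62 ± 0.13, short of 2-fold, and CLDN10 passed it in 6 of the alternative settings. KRT8, FURIN, DAB2, TEAD3, LRP2, PDGFA and SLC2A3 lay between 0.30 and 0.91, KRT8 being called in 4 alternative settings. DPPA3 was -0.96 ± 0.34, not called in the main test but called lower in 6 alternative settings, and PLAC8 was too rare to be tested.

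Of the 15 genes that amnion and trophectoderm share, 3 rose and none fell, with a median of 0.66. KRT7 was at 536 and 551 CPM in members and 216 and 219.8 CPM in GABRP-low cells (1.45 ± 0.06). RefSeq's Sscrofa11.1 annotation lists the KRT7 locus as a long non-coding RNA, so the identity of this row as the keratin is uncertain. KRT18 rose by 1.14. HAND1, a factor of extraembryonic mesoderm, trophoblast and amnion, was at 171 and 153 against 97.6 and 60.4 CPM (1.17 ± 0.19), but its value was 0.55 without a call against cells with no GABRP UMI and 2.55 with a call against cells held to the ISG15 and collagen limits. GATA3 was at 175 and 165 against 116 and 111 CPM, TFAP2A at 379 and 344 against 263 and 241 CPM and TFAP2C at 37.8 and 35.1 against 41.2 and 40.6 CPM. None of these 3 factors reached 2-fold (0.71, 0.66 and -0.03). MSX2, CDH1, KRT19, ID2, EPCAM and ID1 lay between 0.12 and 0.99, and BMP2, DLX5 and ID3 at -0.83, -0.66 and -0.51, all without a call in the main test. MSX2 was called in 5 alternative settings (1.07 to 1.29) and BMP2 against cells with no GABRP UMI (-1.20).

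Of the 20 pig trophoblast genes, 15 could be tested, and 9 rose and 1 fell, with a median of 1.09. Beside CYP17A1, the list holds the other steps from cholesterol to oestrogen. CYP11A1, the cholesterol side-chain cleavage enzyme, was at 17.9 and 26.7 CPM in members and 4.02 and 5.79 CPM in GABRP-low cells (2.32 ± 0.30, adjusted p = 6.75e-04). CYP19A1 (aromatase) was at 1.01 and 1.24 against 0.283 and 0.364 CPM (1.92 ± 0.29), a level near 1 CPM even in members. FDXR, the reductase that supplies electrons to CYP11A1, rose by 1.21, while its partner FDX1 (0.59) and STAR (-0.05), which carries cholesterol into mitochondria, were not called. HSD3B1 and HSD17B1 were too rare to be tested. SULT1E1, which sulfates oestrogens and stands in the list of steroid and lipid supply genes, was at 22.8 and 23.2 CPM in members and 0.823 and 0.957 CPM in GABRP-low cells (4.82 ± 0.17), the only one of the 12 tested genes of that list that was called.

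TMPRSS2, a membrane serine protease, rose by 2.07, IFNE, interferon epsilon, by 1.92 and SLC2A1, a glucose transporter, by 1.09. LGALS3 (galectin 3) rose by 1.01, just past 2-fold. The calls of SLC2A1 and LGALS3 were lost by total counts (0.96 and 0.88). PTGS2 was 0.96 ± 0.05 and SPP1, osteopontin, -0.90 ± 0.25, neither called. PTGS2 passed in 5 alternative settings, and SPP1 by total counts (-1.03) and against cells with no GABRP UMI (-1.65). ENPEP fell, at 0.769 and 0.450 against 1.66 and 1.17 CPM, a call that 5 alternative settings lost. IFNG, a cytokine of the elongating pig conceptus, and IL1B were too rare to be tested. The list held no other interleukin gene. The row named PAG1 was 0.06, and RefSeq also lists that name as an older symbol of a pregnancy-associated glycoprotein gene at another locus, so its identity is uncertain.

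**Figure D2:**
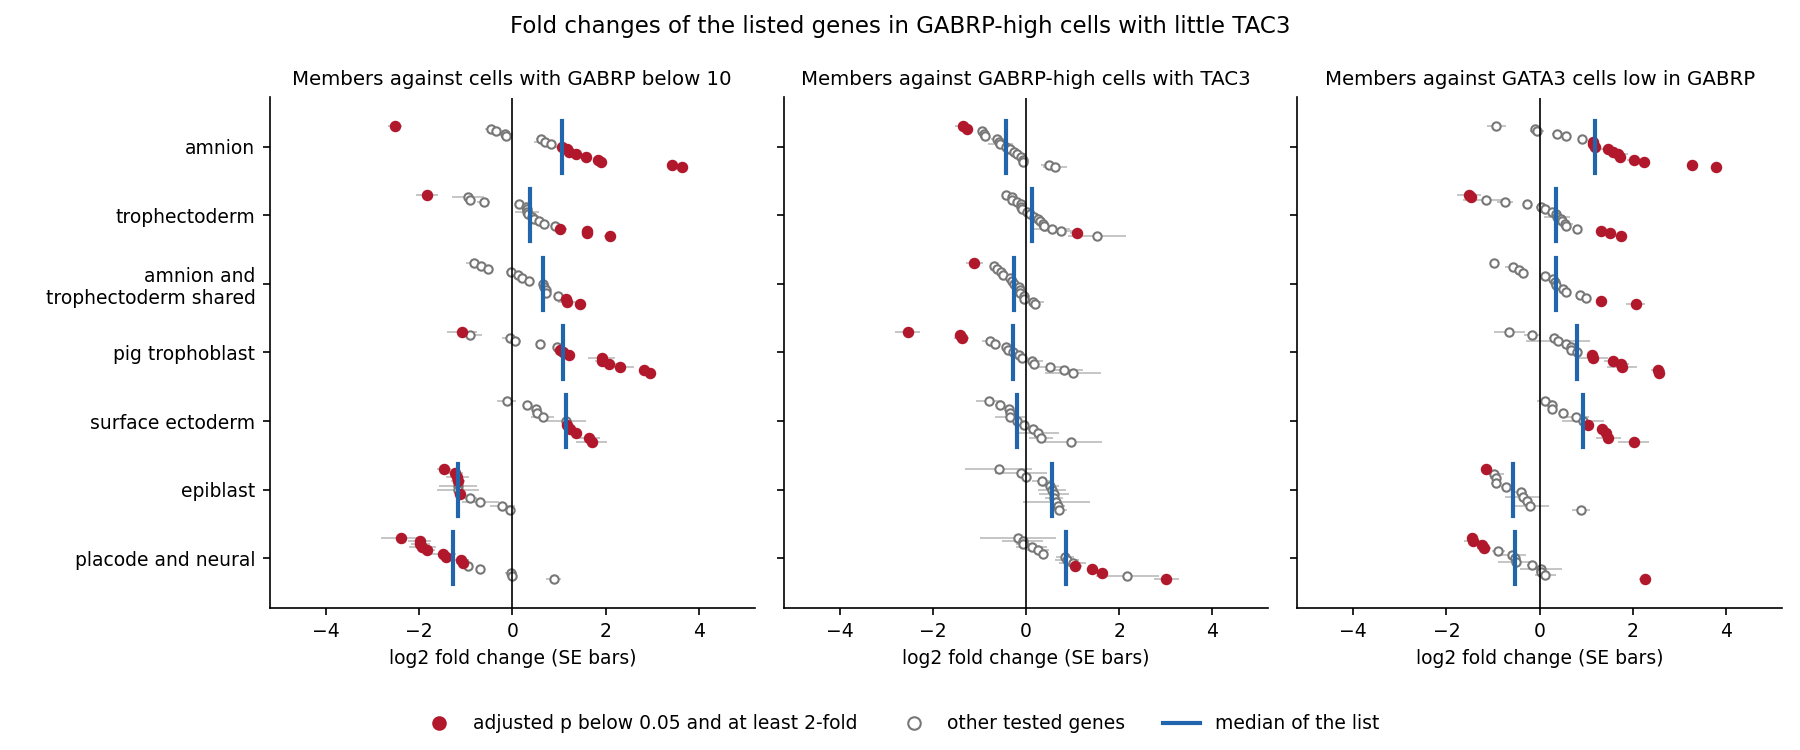
Log2 fold changes (horizontal axis, bars 1 SE) of the tested genes of 7 lists in members against GABRP-low cells, against GABRP-high cells with TAC3, and against GABRP-low cells with GATA3. Filled points passed adjusted p below 0.05 and 2-fold, and the blue lines are list medians, which for amnion are 1.08, -0.43 and 1.19.

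The other GABA-A receptor subunits, which form the neuronal forms of the channel, had low levels in members. GABRD, the delta subunit, was at 6.57 and 5.93 CPM against 1.11 and 1.37 CPM (2.47 ± 0.16, adjusted p = 1.91e-05), although empty droplets held 5.49 and 2.99 CPM. Of the other 10 subunits tested, GABRA2, GABRA3, GABRB1 and GABRG1 fell, from levels of at most 2.85 CPM in GABRP-low cells. GABRA3, GABRB1 and GABRG1 each lost the call in 2 or 3 alternative settings. GABRG3 was at 17.8 and 21.1 against 35.4 and 38.1 CPM, called only in 2 alternative settings. Summed without GABRP, the subunits held 33.6 and 38.1 CPM in members and 54.0 and 57.8 CPM in GABRP-low cells.

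Of 12 genes that make, move or anchor GABA and chloride, 1 rose and 2 fell, beside 4.00% higher and 5.03% lower over all genes. SLC12A2, the sodium-potassium-chloride cotransporter that loads cells with chloride, was at 202 and 248 CPM in members and 66.2 and 71.5 CPM in GABRP-low cells (1.84 ± 0.10, adjusted p = 8.38e-06). SLC12A5, the cotransporter that removes chloride from neurons, was at 0.829 and 1.12 against 1.01 and 1.04 CPM. GAD2, which makes GABA, fell to 1.8 and 2.16 CPM, and ABAT, which degrades it, to 0.621 and 0.647 CPM. GAD1, the other enzyme that makes GABA, was at 1.07 and 0.815 CPM and was not called. Of the other tachykinin genes, TACR1 was at 17.8 and 15.6 CPM, TACR2 and TACR3 at most 0.118 CPM, and TAC1 and the protease gene MME were not called.

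Lists of other cell types moved in both directions, and their calls stand beside 4.00% higher and 5.03% lower over all genes. Of 11 surface ectoderm genes, 5 rose. TP63, the basal epithelial factor, was at 147 and 130.3 CPM against 67.9 and 50.9 CPM (1.36 ± 0.12), and CDH3, LAMB3 and WNT10A rose by 1.23, 1.64 and 1.70. The median of that list was 1.16. KRT5, the keratin of basal epidermis, was at 0.118 and 0.141 CPM in members. Of 11 epiblast genes, 5 fell and none rose. POU5F1, the pluripotency factor, was at 29.4 and 45.9 CPM against 75.4 and 112 CPM (-1.18 ± 0.25), and SOX2 at 15.1 and 17.0 against 34.1 and 44.8 CPM.

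Of 11 hypoblast genes, 5 fell, with GATA6, an endoderm factor, at 4.62 and 4.98 against 27.7 and 17.5 CPM. Members alone were held to the collagen limit, and after each cell had been thinned to 9000 UMIs GATA6 was found in 71.8% and 73.0% of GABRP-low cells with 10 or more collagen UMIs, 14% and 10.4% of all GABRP-low cells and 3.87% and 4.17% of members. Those collagen cells were 520 of the 806 and 392 of the 690 GABRP-low cells with a GATA6 UMI. APOA1, an apolipoprotein of that list, was at 276 and 319 against 177 and 174 CPM (0.90 ± 0.11), not called. Of 14 placode and neural genes, 9 fell, among them PAX6, an eye and neural factor, and STMN2, a neuronal gene, was -0.94. All 12 tested mesenchyme and cardiac genes fell, and 5 of 7 interferon genes fell, in a comparison where members alone were held to the collagen and ISG15 limits. With the GABRP-low cells held to these limits too, MYL7 of the first list stood at -1.40 and was still called. Of 7 primitive streak and germ cell genes, 2 fell, EOMES and GSC. None of 16 cell cycle genes was called, with a median of -0.27. Of 16 dissociation and stress genes 1 rose, the immediate early gene IER3, a share near the 4.00% over all genes. Of 3 haemoglobin and blood genes tested, CD34 fell (-1.13).

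Calls in lists of epithelial and signalling genes stand beside 4.00% higher and 5.03% lower over all genes. Of 7 keratins, 3 rose (KRT7, KRT18 and KRT80, the last by 1.01), and of 15 S100 and annexin genes, 5 rose. ANXA8, an annexin, was at 19.9 and 18.4 CPM in members and 1.60 and 1.42 CPM in GABRP-low cells (3.80 ± 0.11), and S100A16 and S100A14 rose by 1.82 and 1.44. Of 19 tight junction and desmosome genes, only CLDN1 was called (68.0 and 72.8 against 29.9 and 27.9 CPM), a share near that over all genes. Of 13 ion and water transport genes, SLC12A2, ATP1B1, a sodium pump subunit, and SCNN1A, a sodium channel subunit, rose. Of 20 BMP and WNT response genes, WNT6 and WNT7A rose and 6 fell, and of 11 Hippo target genes, ANKRD1 and AMOT rose.

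GABRP-low cells include epiblast-like and mesenchymal cells, so members were also compared with the 1904 and 1871 GABRP-low cells that held at least 5 UMIs of GATA3, a gene the study used to mark trophectoderm-like cells. Against these cells 726 of 17486 tested genes were higher in members (4.15%) and 328 lower (1.88%). Without the limit on fold, 31.0% had an adjusted p below 0.05. By total counts the calls were 604 and 503. The GATA3 cells had a median of 36920 and 35953 UMIs, more than members, and with only cells of 20000 to 40000 UMIs the calls were 810 higher and 502 lower. Because GATA3 chose this group it was not tested, and it stood at 175 and 165 CPM in members and 199 and 202 CPM in the GATA3 cells.

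The amnion list had more calls than the trophectoderm list in this comparison. GATA3, which the study used for trophectoderm, chose the comparator, and GABRP, of the amnion list, chose the members. How far this choice sets the contrast was not tested. The trophectoderm list summed to 8488 and 7997 CPM in members and 5763 and 5813 CPM in the GATA3 cells. Empty droplets held 7896 and 7152 CPM of it, more than the GATA3 cells. This list includes the keratin gene KRT8, and the part of single genes in the sum was not separated. Without GABRP the amnion list summed to 1208 and 1116 CPM in members and 581 and 476 CPM in the GATA3 cells, with empty droplets at 802 and 636 CPM. Of 17 amnion genes, 11 were higher in members than in the GATA3 cells, with a median of 1.19, and of 18 trophectoderm genes 3 were higher and 2 lower, with a median of 0.36. VTCN1 was at 2.92 and 2.15 CPM in the GATA3 cells (3.78 ± 0.11), ISL1 at 48.1 and 36.6 CPM (1.15 ± 0.11) and TNC at 49.5 and 40.1 CPM (2.23 ± 0.08). For ISL1 the call was lost when members were held to 0 TAC3 UMIs (0.97). POSTN and GADD45G were called as well, at 1.68 and 1.15. The trophectoderm genes that were higher were ELF3, ELF5 and SFN, at 1.75, 1.51 and 1.32. With the library as a block EOMES was called lower too (-1.07).

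CLDN10 was lower in members, at 178 and 207 CPM against 546 and 627 CPM (-1.48 ± 0.10, adjusted p = 1.76e-05), as was DPPA3 (-1.51). GATA2 was at 86.6 and 85.1 CPM in the GATA3 cells (-0.28 ± 0.05) and TFAP2C at 54.5 and 54.1 CPM (-0.45), both short of 2-fold, and CDX2 was at 0.855 and 0.869 CPM, called higher in members only with GABRP of at least 20 (1.10). HAND1 and KRT7 were higher in members, by 2.06 and 1.31. Of 15 pig trophoblast genes, 7 were higher, led by CYP17A1 (2.57) and S100A6 (2.54). CYP19A1 was among them at 1.14, and 4 alternative settings lost its call.

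Apart from GABRP, HS6ST3 and ADCY2 had the largest rises of the named genes that reached 50 CPM in members, 2.96 ± 0.09 and 2.95 ± 0.21, followed by LURAP1L, SLC7A4, CST6 and TIMP1. EPB41L3, a membrane-cytoskeleton linker, was at 162 and 146 CPM against 33.8 and 28.0 CPM, and TAGLN, an actin-binding protein of contractile cells, at 434 and 377 against 100.3 and 68.1 CPM. Apart from ISG15, a gene of the rule, the largest falls of the named genes that reached 50 CPM in the GATA3 cells were in CYP26A1 (-1.93), CTNNA2 (-1.62) and CLDN10. GLDC, MMP16, CNTN4, STMN2 and RORB fell by 1.37, 1.32, 1.27, 1.25 and 1.20. NEUROG1, a neurogenic factor, went against its list, at 11 and 10.5 CPM in members and 2.28 and 2.62 CPM in the GATA3 cells (2.26 ± 0.13). Of the other placode and neural genes, PAX6, SIX3 and STMN2 were among those that were lower. TP63 and 4 other surface ectoderm genes were higher in members, and of 10 epiblast genes 1, OTX2, was lower. APOA1 was higher at 1.12, while GATA4, PDGFRA and NID2 of the same hypoblast list were lower. The collagen and ISG15 limits applied to members alone in this comparison, with COL3A1 at 11.5 and 7.37 CPM in members and 40.8 and 13.4 CPM in the GATA3 cells. The hypoblast list summed to 289 and 331 CPM in members, 185 and 165 CPM in the GATA3 cells and 523 and 534 CPM in the GABRP-low cells with 10 or more collagen UMIs. The part of these cells in the lower values was not tested.

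The nearest cells by the rule were the 828 GABRP-high cells with TAC3, which differ from members in the TAC3 limit alone. Against them 77 genes were higher in members (0.437% of 17627) and 251 lower (1.42%). The number of higher genes was 130 with the library as a block, which pairs the sums of each library, 116 by total counts, 227 without called doublets and 21 with GABRP of at least 20. Cells with TAC3 had a median of 26621 and 24809 UMIs, fewer than members. Members also had less GABRP than these cells, so both groups were restricted to 20 to 39 GABRP UMIs (266 and 293 members, 217 and 174 cells with TAC3), an alternative chosen after the data had been seen. It gave 54 higher and 172 lower genes. Matched GABRP below means this range of raw UMIs. GABRP as a share of a cell's UMIs was not matched.

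S100A6 was lower in members, at 1636 and 1906 CPM against 4517 and 4414 CPM (-1.41 ± 0.08, adjusted p = 7.61e-05), and remained called at matched GABRP (-1.19). With GABRP of at least 20 and no upper limit it was -0.87, not called. CLVS2, a vesicle protein of the clathrin pathway, was at 22.6 and 18.6 against 97.4 and 98.6 CPM (-2.33 ± 0.09). CEMIP, which degrades hyaluronan, was at 18.8 and 15.1 against 82.6 and 75.4 CPM (-2.30 ± 0.13). PTN, the growth factor pleiotrophin, was at 36.5 and 30.1 against 172 and 118 CPM (-2.21 ± 0.16). CST3, the cysteine protease inhibitor cystatin C, was at 499.6 and 479 against 1471 and 1461 CPM (-1.66 ± 0.12). In these genes the 2 libraries of members lay below those of cells with TAC3, and empty droplets held more CST3 than either group, 2485 and 1524 CPM. For CLVS2, CEMIP, PTN and CST3 a 2-fold difference in each library was a condition for naming them, so this separation is no further support.

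B2M, the light chain of class I histocompatibility molecules, was at 17.1 and 19.6 CPM against 71.8 and 59.1 CPM. The reference annotates 2 copies of B2M, so its counts are uncertain. THSD4, EPB41L3 and HS6ST3 fell by 1.88, 1.71 and 1.64. At matched GABRP, CLVS2, CEMIP and CST3 stood at -2.08, -2.29 and -1.63. Only ROBO2 and SGIP1 met the naming rule among genes higher in members. ROBO2, an axon guidance receptor, was at 106 and 97.9 against 43.6 and 28.5 CPM (1.41 ± 0.15), and SGIP1, an endocytic adaptor, at 60.6 and 57.4 against 23.9 and 25.8 CPM (1.18 ± 0.10). Both lost the call at matched GABRP (0.90 and 0.74).

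No amnion gene was higher in members than in cells with TAC3, and 2 of 17 were lower, VTCN1 (-1.27 ± 0.11) and VIM (-1.36 ± 0.16), with a list median of -0.43 beside 0.00 over all genes. At matched GABRP the VTCN1 difference was -0.89, below 2-fold. TNC, LEF1, ITGB6 and ISL1 stood at -0.95, -0.90, -0.89 and -0.61, none called. With members held to 0 TAC3 UMIs, TNC and LEF1 were called at -1.17 and -1.13 and ITGB6 just past 2-fold lower, and LEF1 also without called doublets (-1.04). Of 18 trophectoderm genes, FABP3 alone was called in the main test, at 83.1 and 114 CPM in members and 44.1 and 43.9 CPM in cells with TAC3 (1.08 ± 0.15, 1.33 at matched GABRP). ELF5 was 0.01 ± 0.07, GATA2 0.38 ± 0.06 and CDX2 0.76 ± 0.39. With the rule after thinning CDX2 was called at 1.61, and with the library as a block DPPA3 was called higher at 1.48 (adjusted p = 0.0348 in edgeR). HAND1 was lower in members (-1.11 ± 0.19), a call that was lost at matched GABRP (-0.89).

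Of the pig trophoblast genes, S100A6, SPP1 (-2.54 ± 0.27) and IFNE (-1.38 ± 0.16) were lower in members and none was higher, though CYP19A1 was called at 1.68 with the rule after thinning. CYP17A1 was -0.67 ± 0.10, less than 2-fold, and SULT1E1 was lower at 22.8 and 23.2 against 48.2 and 68.0 CPM (-1.41 ± 0.15). Of 14 placode and neural genes, 4 were higher in members: NEUROG1 (11 and 10.5 against 1.09 and 1.47 CPM), EYA2, KCNAB1 and PAX6. GAD1 was called higher, from 0 and 0.0818 CPM in cells with TAC3, a level of at most 1 UMI per library, and 5 alternative settings lost that call. All 16 cell cycle genes had a higher level in members in both libraries, with a median of 0.54 and none past 2-fold. The list sum was 1329 and 1389.8 CPM in members and 904 and 902 CPM in cells with TAC3. KCNQ1, a potassium channel gene, was higher by 1.10. Of the mesenchyme genes, COL1A1 and HAND2 were lower in members, and of the BMP and WNT response genes, MSX1.

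Within members, levels moved with the number of GABRP UMIs. CYP17A1 was at 309 and 277 CPM in members with 10 to 19 GABRP UMIs, 530.0 and 423 CPM with 20 to 39 and 635 and 538 CPM with 40 or more. S100A6 went from 718 and 1073 to 4989 and 4474 CPM over the same bins, and ITGB6 from 18.1 and 22.3 to 74.1 and 59.1 CPM. ISL1 and ELF5 differed less between the bins, from 85.9 and 69.9 to 100.5 and 91.1 CPM and from 173 and 158 to 203 and 193 CPM. ROBO2 went the other way, from 139 and 145 to 25.7 and 34.9 CPM. The top bin held 91 members in each library, with medians of 41830 and 45803 UMIs, so depth rose along with GABRP.

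Bins below the limit held less of the genes that went up with GABRP. VTCN1 was at 2.45 and 1.23 CPM in cells with no GABRP UMI and 5.88 and 4.87 CPM in those with 3 to 9. The lowest members held 19.7 and 19.8 CPM, and this last ratio was larger than between any other neighbouring bins. Only the member bins were held to the TAC3, ISG15 and collagen limits. With these limits on both sides, VTCN1 was at 12.7 and 8.88 CPM with 8 to 9 GABRP UMIs and 15.5 and 14.9 CPM with 10 to 11. Over the 12 values of 6 bins in 2 libraries, the genes whose log2(CPM + 1) followed that of GABRP most closely, of 3530 with a mean of at least 50 CPM, were SLC16A1 (r = 0.977), BRINP1 (0.971), CCNG1 (0.969), WWC1 (0.968) and DBI (0.967). GABRP defined the bins and is 0 in the lowest one, where its log2 value is set by the added 1. No other offset was tried for r or this order. The bins also share libraries and differ in depth, and the values are a description. SLC16A1, a lactate transporter, spanned a narrow range, from 157 and 159.8 CPM at 0 GABRP UMIs to 209.5 and 200.2 CPM in the top bin.

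By TAC3, members with 0 UMIs had VTCN1 at 27.8 and 26.5 CPM, those with 2 had 63.8 and 53.9 CPM, and GABRP-high cells with 10 or more TAC3 UMIs had 85.6 and 99.6 CPM. ISL1 was at 83.2 and 69.4 CPM in members with 0 TAC3 UMIs and 111 and 123 CPM in those with 2. APOA1 ran in the other direction, with 302 and 343 CPM at 0 TAC3 UMIs and 119 and 140.1 CPM at 10 or more. TOP2A, a gene of dividing cells, was at 159 and 158 CPM in the first of these bins and 72.8 and 59.0 CPM in the last. ELF5 was at 186 and 166 CPM and then 128 and 148 CPM. GABRP also differed between these bins, with 542 and 527 CPM in the first and 1189.6 and 1374 CPM in the last.

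**Figure D3:**
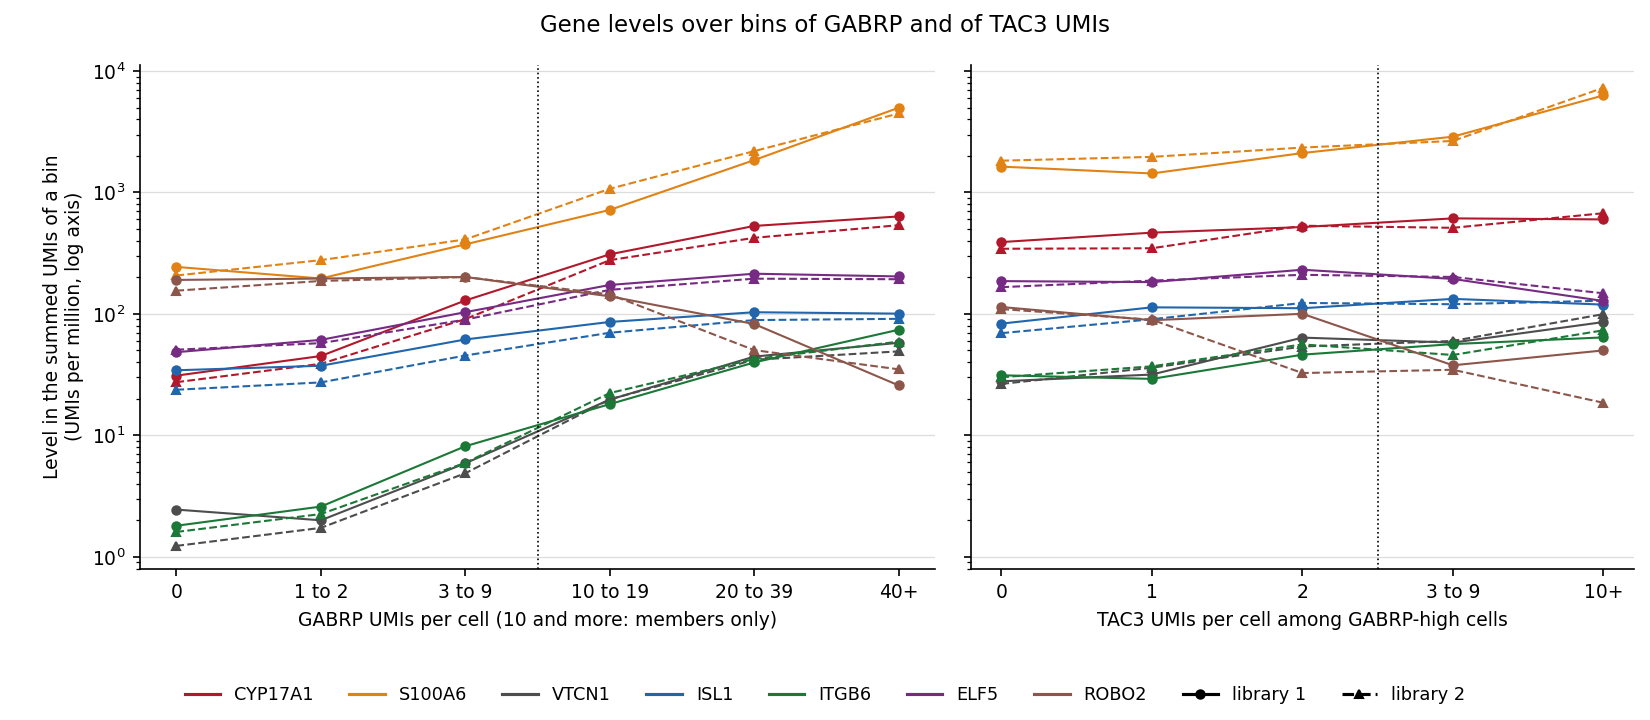
CPM (vertical log axis) of 7 genes in cells binned by GABRP UMIs (left, members only from 10 UMIs on) and in GABRP-high cells binned by TAC3 UMIs (right, members up to 2 UMIs), solid lines for library 1 and dashed for library 2. The dotted lines mark the limits of the rule, and S100A6, CYP17A1, VTCN1 and ITGB6 are higher in every member bin than in every bin below the GABRP limit, while ROBO2 is lower.

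The same genes were counted per cell after each cell had been thinned to 9000 UMIs, which removes the depth difference and leaves no cell out. VTCN1 was found in 24.0% and 24.9% of members, 2.93% and 2.30% of GABRP-low cells and 3.59% and 1.12% of GABRP-low cells with 10 or more collagen UMIs, which serve as a background of a cell type that should lack it. Without thinning it was found in 50% and 50% of members and 7.56% and 5.72% of GABRP-low cells. ISL1 was found in 47.7% and 40.6% of thinned members and 24.4% and 19.7% of GABRP-low cells, with 16.9% and 14% in the collagen cells. CYP17A1 was found in 70.2% and 71.2% of members, 23.0% and 18.8% of GABRP-low cells and 9.39% and 6.52% of collagen cells. These shares in members exceed both the GABRP-low cells and the collagen cells in each library. GABRP-high cells with TAC3 had larger shares still. VTCN1 was found in 44.7% and 43.9% of them, ISL1 in 58.4% and 56.6% and CYP17A1 in 83.3% and 84.4%.

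GATA3 was found in 73.9% and 71.1% of members and 54.5% and 52.4% of GABRP-low cells. For TFAP2A the shares were 92.5% and 94.3% of members against 74.0% and 71.8% of GABRP-low cells, and for ELF5 73.0% and 68.4% against 33.7% and 31.7%. In the collagen cells they were 22.0% and 18.6% for TFAP2A and 8.56% and 6.52% for ELF5. GATA2 was found in 40.8% and 37.6% of members, 36.6% and 36.3% of GABRP-low cells and 10.1% and 8.75% of collagen cells. CDX2 was found in 1.14% and 1.10% of members, 0.749% and 0.826% of GABRP-low cells and 3.04% and 4.66% of collagen cells, which held the most and are no background for it. At this depth 10 members in each library had a CDX2 UMI. HAND1 was more frequent in the collagen cells (80.8% and 77.3%) than in members (60.4% and 59.1%). TNC was also more frequent there (65.1% and 65.7%, against 55.2% and 57.8% of members). POU5F1 was found in 12.3% and 20.6% of members, 23.6% and 31.8% of GABRP-low cells and 7.32% and 10.4% of collagen cells.

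Joint detection of pairs of genes was compared with the product of their shares. The genes came from the amnion (ISL1, VTCN1), shared (GATA3), pig trophoblast (CYP17A1) and trophectoderm (GATA2) lists. GATA3 was also found in 23.8% and 26.3% of collagen cells. In members, ISL1 and GATA3 were found together in 36.3% and 27.3% of thinned cells, and the product of their separate shares was 35.3% and 28.8%. VTCN1 and GATA3 were found together in 18.5% and 18.9% beside a product of 17.8% and 17.7%. CYP17A1 and VTCN1 were found together in 20.2% and 21.2% beside 16.9% and 17.7%. The joint share of ISL1 with GATA3 was above the product in library 1 and below it in library 2, while those of VTCN1 with GATA3 and with CYP17A1 were above it in both. Differences between joint shares and products were not tested. CYP17A1 and GATA3 were found together in 56.7% and 54.1% beside 51.9% and 50.6%. CYP17A1 and ISL1 were found together in 37.2% and 31.4% of members beside 33.5% and 28.9%. In GABRP-low cells that pair was also above the product, at 8.48% and 5.36% beside 5.62% and 3.70%. ISL1 and GATA2 lay below the product in both libraries, at 16.6% and 14.4% beside 19.5% and 15.3%.

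**Figure D4:**
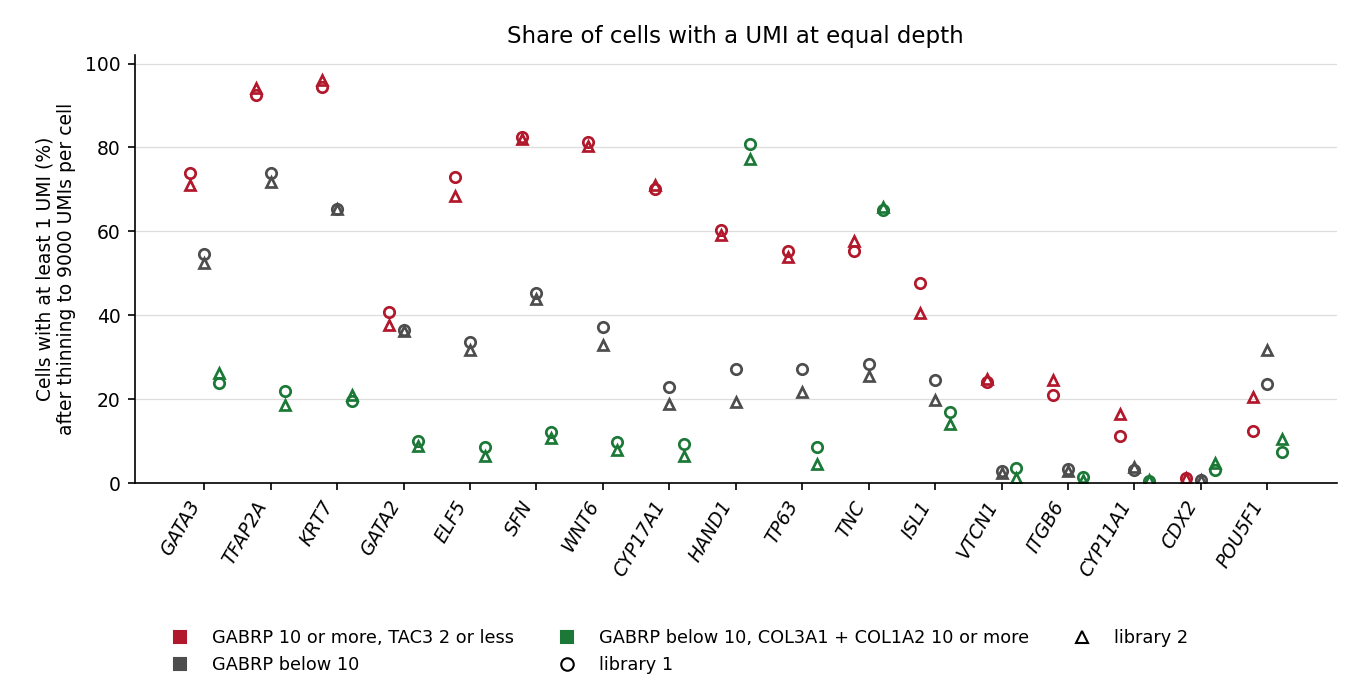
Percentage of cells (vertical axis) with at least 1 UMI of each gene after thinning every cell to 9000 UMIs, in members, GABRP-low cells and GABRP-low cells with 10 or more collagen UMIs, each symbol 1 library. TFAP2A and KRT7 were found in over 92% of members, VTCN1 in 24.0% and 24.9%, and CDX2 in 1.14% and 1.10%, while HAND1 and TNC were most frequent in collagen cells.

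The bulk pESC libraries gave the level of these genes in stem cells, in FPKM (fragments scaled by gene length and library total), a unit that cannot be set beside CPM. GABRP was at 21.3 to 51.9 FPKM and TAC3 at 14.6 to 64.3 FPKM over the 3 pESC libraries. VTCN1 was listed at 0 to 0.0248 FPKM, ITGB6 at 0 in all 3, ISL1 at 0.0350 to 0.644, WNT6 at 0 to 0.158, TFAP2A at 0.0845 to 0.133 and CDX2 at 0 to 0.125 FPKM. GATA3 was at 0.122 to 3.97 FPKM and CYP17A1 at 0.656 to 1.66 FPKM. Of the 12 named genes of at least 50 CPM with the largest rises against GABRP-low cells, 4 were below 1 FPKM in all 3 libraries. These ranges cover columns of different named origin and passage. In all 3 columns GABRP and TAC3 were above 10 FPKM and VTCN1, ITGB6, WNT6 and TFAP2A below 1 FPKM.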

How the data were processed

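Blastoid single-cell RNA was sequenced by the authors with 10x Genomics Chromium in 2 libraries, and the deposited matrices hold raw UMI counts per gene and barcode, which the authors made with Cell Ranger 7.1.0 on susScr11 after quality control with Dr.seq2. The bulk pESC tables hold FPKM that the authors made with Trim Galore 0.6.4, HISAT2 2.2.1 and StringTie 2.2.1, and their 3 columns are matched to the pESC group but not to single samples. Barcodes at the UMI limits of the rule were kept (7369 and 8175 cells), with no other cell filter. Scrublet (in scanpy 1.11.5) marked 1 and 0 doublets with its own threshold, which was taken as not having worked, so the top scores up to 0.8% per 1000 cells (434 and 535 cells) were marked and left out in an alternative. Shares of cells are given per library, and their spread is that of the 2 libraries.

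UMIs were summed per library and group. The 6 sums of a fit (members, GABRP-high cells with TAC3 and GABRP-low cells, in 2 libraries) were tested with edgeR 4.0.16 (R 4.3.3; filterByExpr, TMM, quasi-likelihood F-test, no library term), with Benjamini-Hochberg adjustment over all genes tested. The comparison with GATA3 cells was fitted in the same way. All comparisons share the members' sums. Sums of the same library deviated together (r = 0.152, 0.313 and 0.224 over 17632 genes), and both groups of a comparison come from the same library, so the library pairs them and a fit with it as a block was an alternative. The p-values measure the spread between 2 libraries. The rate of false calls in these data was not tested.

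The members and the 24 gene lists were chosen with earlier results of these data known. Named are the 5 genes of the rule, for each comparison the 12 highest and 8 lowest called genes with at least 50 CPM in both libraries and 2-fold in each, leaving out symbols without a gene name, all measured genes of the amnion, trophectoderm, shared, trophoblast, GABA and tachykinin lists, up to 4 genes of each other list, and the 5 genes that follow GABRP over bins. Alternatives were the library block, DESeq2 1.42.0, total counts, no filter on low counts, cells without high mitochondrial share (5 median absolute deviations), no doublets, cells of 20000 to 40000 UMIs, GABRP of at least 20, TAC3 of 0, the rule after thinning to 9000 UMIs, comparators with GABRP of 0, with the ISG15 and collagen limits or with at least 10 GATA3 UMIs, and, added after seeing the data, both GABRP-high groups at 20 to 39 GABRP UMIs. Positions and windows are from RefSeq's Sscrofa11.1, the same assembly as susScr11, where 29862 of 30029 gene names matched. Some list genes are counted but not reported here by name. List genes not analysed here were PAG2, KRT13, KRT14, KRT17, NANOS3, CA2, S100P, CCN1, HSPA1A, HSPA1B and HBA1.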

Additional observations from a re-analysis of the deposited data

How the results depend on the processing

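With 2 libraries of 1 kind of blastoid, leaving out either left no residual degrees of freedom, so single-library results are fold changes without a test, and the spread of cultures or donors was not measured. Against GABRP-low cells both counts stayed within 1.5 times of 705 and 886 under all 12 alternatives. Against GABRP-high cells with TAC3, the 77 higher genes became 130 with the library as a block in the paired fit, 116 by total counts, 227 without called doublets, 162 in cells of 20000 to 40000 UMIs, 21 with GABRP of at least 20, 117 with TAC3 of 0 and 33 with the rule after thinning. The 251 lower genes became 126 with GABRP of at least 20 and 156 after thinning. Against GATA3 cells, the 328 lower genes became 503 by total counts, 517 without called doublets, 502 in cells of 20000 to 40000 UMIs and 543 with GABRP of at least 20, and DESeq2 called 225. The cause was not tested. The members numbered 741 with GABRP of at least 20 and 1187 with TAC3 of 0. The share of higher calls was 44.3%, 23.5% and 68.9% in the 3 comparisons and 33.1%, 34.7% and 54.6% by total counts, and the medians of all genes then shifted to -0.15, 0.08 and -0.13. The block moved no other count by more than 1.5 times. Of the named genes it added the calls of DPPA3 and GABRA3 against cells with TAC3 and of EOMES against GATA3 cells, and changed no other call. Over the named genes and the shares of cells, 4025 alternative values were counted as unchanged, 81 passed the threshold newly, 44 lost it and 14 moved beyond the spread of libraries. Single-library fold changes and shares of cells have no threshold. They were counted as unchanged when within the spread of the 2 libraries, which the single-library values meet almost by construction. No called value changed sign, and 93 values without a call did.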
